A study of Mus musculus with 6 samples.

Results

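The insulin-like growth factor (IGF) axis was examined in mouse cardiac fibroblasts that were treated with TGF-β and labelled as control or as *Tet3* knockout. The 10 genes were picked by symbol from the 22063 genes of the count table: the ligands *Igf1* and *Igf2*, the receptor *Igf1r*, the binding proteins *Igfbp2*, *Igfbp3*, *Igfbp4*, *Igfbp5*, *Igfbp6* and *Igfbp7*, and the protease *Pappa*. They were picked with the difference between CRE and GFP cells already known, *Pappa* among the genes that were furthest lower, so that difference is given for them as a description without a test. All 10 had enough reads to enter the fit of 12862 genes. RNA-seq covered 6 libraries of primary fibroblasts cultured from hearts of Tet3 f/f mice, in which loxP sites flank a part of *Tet3* (C57BL/6 J background by the study's methods). The age of the mice used for these cultures is not given in the sources used here. GFP (n = 3, genotype labelled control) had received an adenovirus coding for green fluorescent protein, and CRE (n = 3, labelled as the *Tet3* knockout) one coding for Cre recombinase, which cuts out DNA between loxP sites. Both groups therefore carried floxed alleles and adenovirus and had received TGF-β, the cytokine that turns cardiac fibroblasts into matrix-secreting myofibroblasts. The study's reagent list has EGFP, a green fluorescent protein, in the names of both its Cre and its control adenovirus. The adenovirus is not specific to 1 cell type, so Cre could act in any cell of the dish. Cultures that had received no TGF-β were not analysed here. The labels do not say whether the 3 libraries of a group came from separate cultures or animals. The study's legend for the figure with these libraries speaks of biological replicates without defining them. SEs and p-values therefore measure the spread between these libraries, which may be in part technical.

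IGF1 and IGF2 are secreted peptides that bind the receptor tyrosine kinase IGF1R and promote growth, survival and matrix synthesis. In the extracellular space most IGF is held by IGF binding proteins, which lengthen its life and keep it from, or deliver it to, the receptor, while IGFBP7 is a related protein that binds IGF only weakly. PAPP-A, the product of *Pappa*, is a secreted metalloprotease that cuts IGFBP4 and IGFBP5 and so frees IGF, and the stanniocalcins STC1 and STC2 block it.

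All 10 genes are protein-coding in the GENCODE M21 annotation of the mouse genome (GRCm38). *Igfbp3* (ENSMUSG00000020427, chr11:7206086-7213923, minus strand) lies 3539 bases from *Igfbp1*. *Igfbp2* (ENSMUSG00000039323, chr1:72824503-72852474, plus strand) and *Igfbp5* (ENSMUSG00000026185, chr1:72857932-72874884, minus strand) are also neighbours, with 5457 bases between them. *Pappa* (ENSMUSG00000028370) spans chr4:65124174-65357509 on the plus strand. *Igfbp4* (ENSMUSG00000017493) is at chr11:99041244-99054392 on the plus strand, *Igfbp6* (ENSMUSG00000023046) at chr15:102144362-102149511 on the plus strand, and *Igfbp7* (ENSMUSG00000036256) at chr5:77349240-77408041 on the minus strand. *Igf1* (ENSMUSG00000020053) is at chr10:87858265-87937042, plus strand. *Igf1r* (ENSMUSG00000005533, chr7:67952827-68233668, plus strand) and *Igf2* (ENSMUSG00000048583, chr7:142650766-142666816, minus strand) share a chromosome.

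TET3 oxidises methylated cytosine in CpG dinucleotides, so the CpGs before the gene start are shown for a pair of binding protein genes that were lower in CRE and differ in their number of CpGs, *Igfbp3* and *Igfbp5*, and for one that did not pass the threshold, *Igfbp4*. The 250 bases before each RefSeq start (GRCm38.p6) are written 5′ to 3′ on the strand of the gene, with each CpG in capitals, for chr11:7213924-7214173 (minus strand, 32 CpGs), chr1:72874866-72875115 (minus strand, 10 CpGs) and chr11:99040994-99041243 (plus strand, 22 CpGs), in that order.
Igfbp3: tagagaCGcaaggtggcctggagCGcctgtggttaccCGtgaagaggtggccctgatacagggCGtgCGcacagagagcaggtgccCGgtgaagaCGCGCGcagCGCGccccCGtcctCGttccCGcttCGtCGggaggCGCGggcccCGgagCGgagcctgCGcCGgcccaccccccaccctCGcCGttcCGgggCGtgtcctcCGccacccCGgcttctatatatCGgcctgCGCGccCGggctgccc
Igfbp5: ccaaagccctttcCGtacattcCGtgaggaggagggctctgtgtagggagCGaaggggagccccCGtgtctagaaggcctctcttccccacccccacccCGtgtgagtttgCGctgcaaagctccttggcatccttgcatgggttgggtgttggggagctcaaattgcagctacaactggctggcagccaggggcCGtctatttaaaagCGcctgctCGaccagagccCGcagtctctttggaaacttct
Igfbp4: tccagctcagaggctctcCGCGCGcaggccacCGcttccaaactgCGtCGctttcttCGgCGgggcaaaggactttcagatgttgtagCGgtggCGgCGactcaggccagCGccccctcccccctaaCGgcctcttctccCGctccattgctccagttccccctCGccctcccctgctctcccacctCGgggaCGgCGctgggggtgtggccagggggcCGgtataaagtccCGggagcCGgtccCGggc
*Igfbp3* had the most CpGs of these 3 stretches and *Igfbp5* the fewest, with *Igfbp4* between them.

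Windows of 300 bases, from 250 before to 50 after each start, were compared with 32851 such RefSeq windows, whose median was 7 CpGs. Of the 10 genes 9 matched, and *Pappa* did not. *Igf1r* had 48 CpGs, a number reached by 1.22% of all windows, *Igfbp3* had 37 (5.58%), *Igfbp7* 33 (8.56%) and *Igfbp4* 27 (15.5%). *Igfbp5* had 10 (43.5%), *Igfbp6* 8 (48.65%) and *Igf1* 6 (56.4%). The windows of genes with several starts held 18 (29.7%) and 14 (36.3%) CpGs in *Igfbp2* and 2 to 24 in *Igf2*. The windows of the 5 matched genes that were lower in CRE thus held from 8 to 37 CpGs, all above the median. Of the genes that did not pass the threshold, *Igf1r*, the densest of the 9 matched genes, and *Igfbp4* were above it too. *Igf1* was below it, and the windows of *Igf2* lay on both sides or at it. The genes were picked with the contrast known, so nothing is read from these numbers. Neither CAGAC, the core that SMAD proteins bind, nor GGAATG, the core bound by TEAD factors, nor TATAAA was found on either strand of the *Igfbp3* window. Only these exact letters were sought, and the *Igfbp3* stretch printed above holds tatatat, a close variant of TATAAA that was not counted. Among all windows CAGAC was present in 49.6%, GGAATG in 14.7% and TATAAA in 13.6%. *Igfbp5* held GGAATG once, *Igfbp4* held TATAAA once, and *Igfbp6* held CAGAC and TATAAA once each. CAGAC was also found in the windows of *Igf1r* and *Igfbp2* and in 3 of the 4 of *Igf2*, which held GGAATG as well, and *Igf1* and *Igfbp7* held none of these motifs. Such a match describes letters and not a bound site, and methylation was not measured in these libraries.

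Across the series, the libraries held 17002126 to 20343590 reads in genes, and a count of 0 allowed a level of up to 0.156 to 0.187 CPM (counts brought to a common library size and scaled by the trimmed mean of M values, TMM), which covers counting error only. *Tet3* was present in all 6 libraries. It had 1044, 965 and 1000 counts in GFP and 642, 649 and 637 in CRE, that is 60.8% of the GFP level after scaling (log2 fold change -0.72, SE 0.08, adjusted p = 5.36e-05, edgeR quasi-likelihood test; exact two-sided permutation test p = 0.1, the smallest that 3 against 3 libraries allow). A total count over the whole gene does not show how much of the transcript was still intact. A difference between CRE and GFP was common, since 51.2% of the 12862 genes passed an adjusted p of 0.05 in either direction, 25.5% higher and 25.7% lower, and the CPM of the groups did not overlap for 59.6%. The median log2 fold change of all tested genes was 0.0052.

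In CRE cells transcripts of *Pappa* and of 5 of the 6 binding protein genes were lower, while those of the ligands and of the receptor did not pass the threshold. The threshold was an adjusted p of 0.05 over all tested genes, used here to sort the 10 genes. By it 6 were lower, 0 higher and 4 neither, beside 25.7% lower and 25.5% higher among all tested genes, and the same 6 had CPM that did not overlap between groups, beside 59.6% of all tested genes. Their choice used this contrast, so nothing is read from these shares. The median log2 fold change of the 10 genes was -0.46. The range ran from -2.44 for *Pappa* to 0.15 for *Igf1*.

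**Figure D1:**
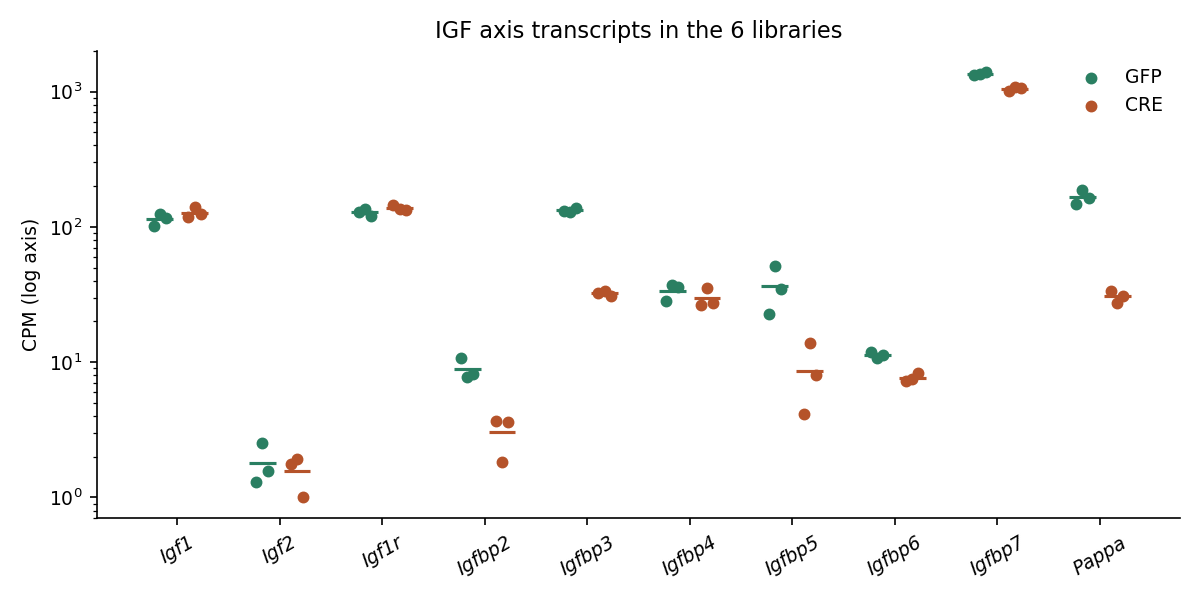
Level of each IGF axis gene in CPM (log axis) in the 6 libraries; points are single libraries, ordered by replicate within a group, and bars are group means. *Pappa*, *Igfbp3*, *Igfbp5*, *Igfbp2*, *Igfbp6* and *Igfbp7* have every CRE point below every GFP point, and the points of *Igf1*, *Igf2*, *Igf1r* and *Igfbp4* overlap.

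*Pappa* encodes the protease that cuts IGFBP4 and IGFBP5. It had 2389, 3296 and 3163 counts in GFP and 620, 498 and 587 in CRE, or 148.5, 185.8 and 164.3 CPM against 33.3, 27.6 and 31.0 CPM. All 3 CRE libraries were far below the lowest GFP library. The group means were 166.2 ± 18.7 CPM in GFP and 30.6 ± 2.88 CPM in CRE (SD, n = 3), 18.4% of the GFP level (log2 fold change -2.44, SE 0.09). *Pappa* was 36th when the 12862 genes were ordered from the lowest log2 fold change, the furthest of the 10 genes. Its lowest CRE library still held 498 reads, so the remaining transcript was well measured.

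*Igfbp3* encodes the main carrier of IGF in blood and is also secreted by fibroblasts. It had 2094, 2289 and 2671 counts in GFP and 607, 601 and 583 in CRE. In CPM these were 130.2, 129.0 and 138.8 against 32.6, 33.3 and 30.8. The libraries of each group lay close together, with the highest only 1.08 times the lowest in both GFP and CRE, and the groups were far apart. The means were 132.7 ± 5.32 CPM and 32.2 ± 1.29 CPM, so CRE held 24.3% of the GFP level (log2 fold change -2.04, SE 0.05).

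*Igfbp5* encodes a binding protein that attaches to extracellular matrix and is cut by PAPP-A. It had 366, 916 and 665 counts in GFP and 77, 248 and 153 in CRE, or 22.8, 51.6 and 34.6 CPM against 4.14, 13.7 and 8.08 CPM. GFP replicate 1 and CRE replicate 1 were the lowest of their groups and replicate 2 the highest in both, and the groups did not overlap. *Igfbp5* spread most among the 6 lower genes, with the highest library 2.27 times the lowest in GFP and 3.32 times in CRE. The means were 36.3 ± 14.5 CPM and 8.65 ± 4.82 CPM, or 23.8% (log2 fold change -2.08, SE 0.36), so a difference close in size to that of *Igfbp3* came with a much larger error.

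*Igfbp2*, the neighbour of *Igfbp5*, encodes a binding protein abundant in fetal and growing tissue. It had 172, 138 and 157 counts in GFP and 68, 33 and 68 in CRE, or 10.7, 7.78 and 8.16 CPM against 3.65, 1.83 and 3.59 CPM. CRE replicate 2 stood lowest, and the groups did not overlap. The means were 8.88 ± 1.59 CPM and 3.02 ± 1.04 CPM, 34.1% of the GFP level (log2 fold change -1.54, SE 0.23).

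*Igfbp6* and *Igfbp7* were lower by less. *Igfbp6*, whose product prefers IGF2 over IGF1, had 11.8, 10.8 and 11.2 CPM in GFP and 7.20, 7.48 and 8.34 CPM in CRE. CRE held 68.1% of its GFP level (log2 fold change -0.55, SE 0.10). *Igfbp7*, secreted by fibroblasts and vessel cells, was by far the most abundant of the 10 genes, with 21294, 24005 and 26832 counts in GFP and 18785, 19376 and 20100 in CRE. Its level was 1324, 1353 and 1394 CPM in GFP and 1009, 1073 and 1061 CPM in CRE, or 77.2% (log2 fold change -0.37, SE 0.04). The groups did not overlap for either gene. *Igfbp7* shares 85 of its 1209 exon bases with *Polr2b* on the opposite strand, which had 1306 to 1660 counts in GFP and 1659 to 1856 in CRE, far fewer than *Igfbp7*.

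*Igfbp4*, whose product PAPP-A cuts as well, did not pass the threshold. It had 452, 655 and 690 counts in GFP and 493, 633 and 514 in CRE, or 28.1, 36.9 and 35.9 CPM against 26.5, 35.1 and 27.1 CPM. CRE replicate 2 lay within the GFP libraries and GFP replicate 1 within the CRE libraries. The means were 33.6 ± 4.81 CPM and 29.6 ± 4.77 CPM, 87.9% of the GFP level (log2 fold change -0.19, SE 0.12). Without GFP replicate 1 the log2 fold change was -0.30, and without CRE replicate 2 it was -0.32, and in both cases *Igfbp4* passed the threshold as lower, which made 7 lower genes of 10.

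None of the ligands and the receptor passed the threshold, and their groups overlapped. *Igf1*, the ligand that fibroblasts make under growth hormone and other signals, had 1629, 2217 and 2253 counts in GFP and 2183, 2514 and 2342 in CRE. Its level was 101.3, 125.0 and 117.1 CPM against 117.3, 139.2 and 123.7 CPM, with overlapping groups (log2 fold change 0.15, SE 0.08). *Igf1r*, the receptor, had 2061, 2398 and 2316 counts in GFP and 2699, 2430 and 2502 in CRE. In CPM this was 127.9 ± 7.43 against 137.2 ± 6.85, again with overlapping groups (log2 fold change 0.10, SE 0.06). *Igf1* and *Igf1r* did pass the threshold as higher, at 0.31 and 0.26, when reads were scaled by library size alone. They passed as higher too in tests of log2 FPKM, which divides by the reads of the library without TMM scaling. Library size alone moved the median of all genes up by 0.16 and the share of called genes that were higher from 49.8% to 72.6%. The tests of log2(FPKM + 1) and log2(FPKM + 0.1) moved the median up by 0.13 and 0.16 and that share to 72.2% and 72.3%. *Igf2*, a fetal growth factor, was the least abundant, with 21, 45 and 30 counts in GFP and 33, 35 and 19 in CRE. Its means were 1.80 ± 0.65 CPM and 1.57 ± 0.50 CPM (log2 fold change -0.20, SE 0.33), and its sign turned, to 0.12 when GFP replicate 2 was left out and to 0.042 when CRE replicate 3 was. The order of *Igf2* between groups could not be told at these counts.

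**Figure D2:**
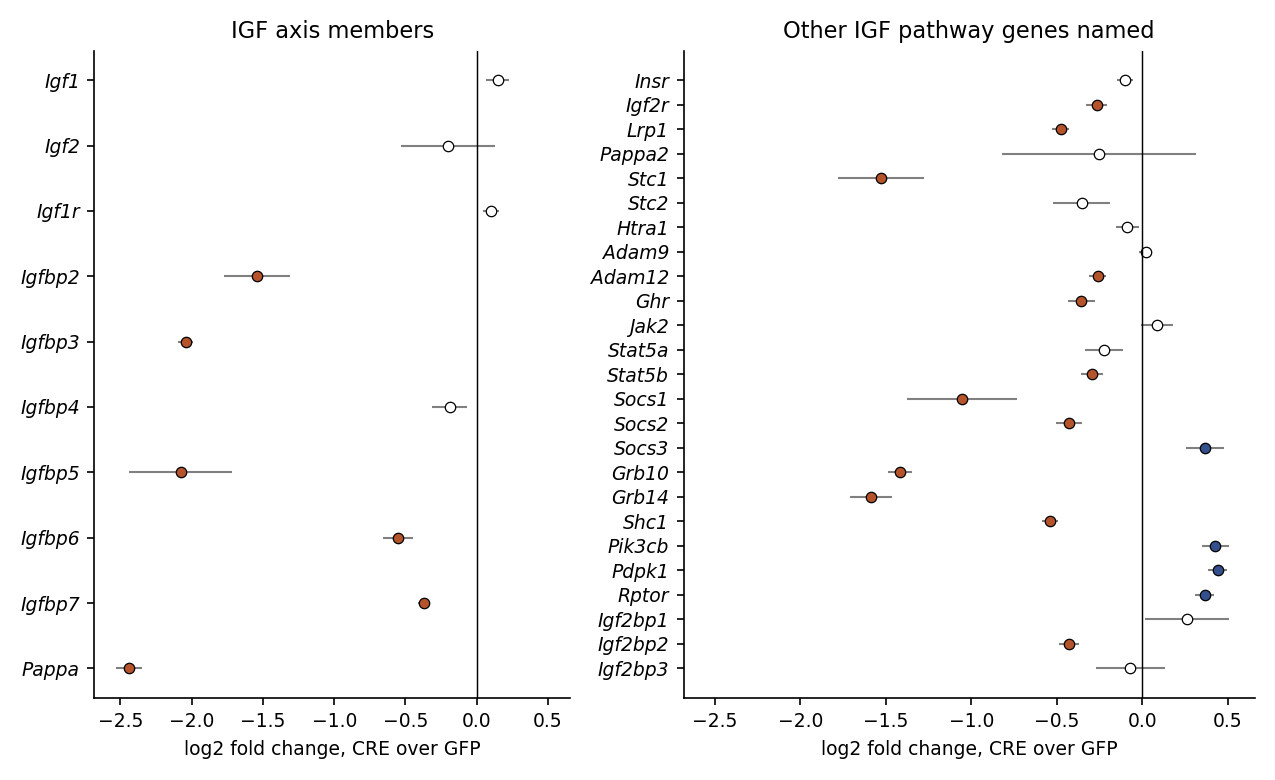
Log2 fold change of CRE over GFP (edgeR) for the 10 IGF axis genes on the left and for the other named IGF pathway genes on the right; points are estimates, lines 1 SE, red fill marks lower and blue fill higher at an adjusted p of 0.05 over all tested genes, and open points pass in neither direction. *Pappa*, *Igfbp5* and *Igfbp3* lie below -2, and *Grb14*, *Stc1* and *Grb10* lie below -1.4.

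Levels were compared between genes as FPKM, which divides reads by transcript length and by the reads of the library. In GFP *Igfbp7* came first with 1147.7 ± 31.5 FPKM, followed by *Igfbp3* with 52.0 ± 2.20 FPKM and *Igf1* with 31.4 ± 2.85 FPKM (SD, n = 3). *Pappa* had 14.2 ± 1.61 FPKM, *Igfbp4* 12.9 ± 2.68, *Igf1r* 10.6 ± 0.61 and *Igfbp6* 9.57 ± 0.44 FPKM, and each of these neighbours overlapped the next in its libraries. *Igfbp2* with 6.51 ± 1.30 FPKM and *Igfbp5* with 5.71 ± 2.29 FPKM overlapped each other, and *Igf2* was last with 0.46 ± 0.16 FPKM. In CRE the order was different in its upper part. *Igfbp7* stayed first with 991.5 ± 36.7 FPKM, but *Igf1* came next with 40.5 ± 4.60 FPKM, above *Igfbp3* with 14.2 ± 0.55 FPKM. *Igfbp3* then overlapped *Igfbp4* (12.8 ± 1.48 FPKM), which overlapped *Igf1r* (12.7 ± 0.58 FPKM). *Igfbp6* followed with 7.30 ± 0.58 FPKM. *Pappa* moved from the fourth to the seventh place with 2.94 ± 0.26 FPKM and overlapped *Igfbp2* (2.77 ± 0.78 FPKM), and *Igfbp2*, *Igfbp5* (1.53 ± 0.86 FPKM) and *Igf2* (0.68 ± 0.53 FPKM) each overlapped the next. *Igf2* was below *Igfbp5* in each CRE library. The overlap of their ranges rests on CRE replicate 2, where *Igf2* had 1.29 FPKM against 0.479 and 0.275 FPKM in the other CRE libraries, from 35 reads against 33 in CRE replicate 1. *Igfbp3* was thus above *Igf1* in every GFP library and below it in every CRE library.

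**Figure D3:**
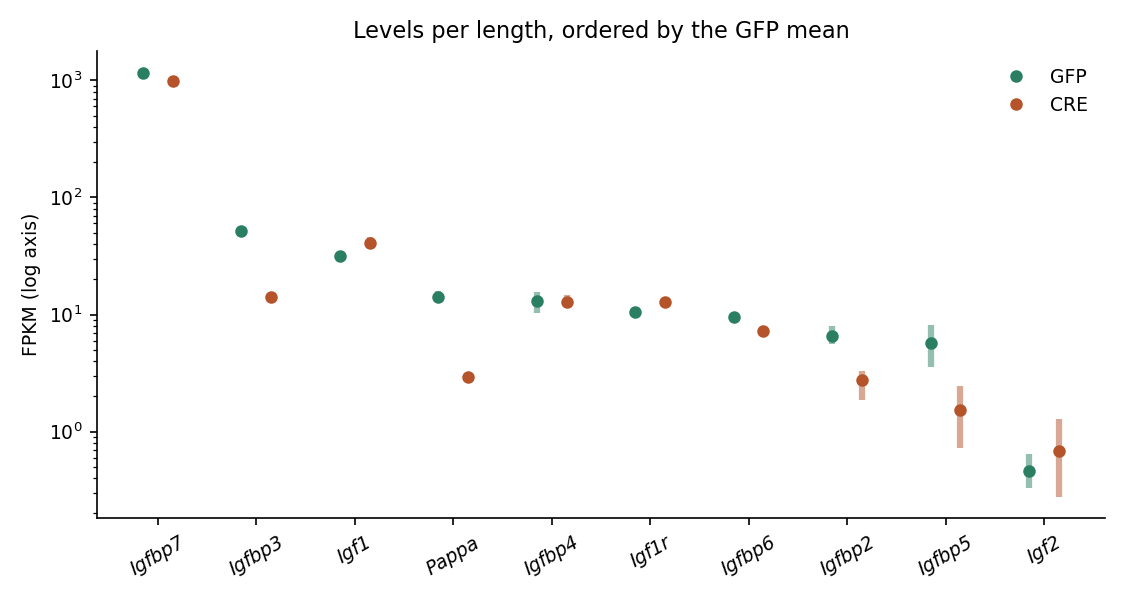
Level per transcript length in FPKM (log axis) of the 10 genes, ordered by their mean in GFP; points are means of 3 libraries and bars run from the lowest to the highest library. *Igfbp3* lies above *Igf1* in GFP (52.0 and 31.4 FPKM) and below it in CRE (14.2 and 40.5 FPKM).

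The make-up of the binding protein transcripts was taken from the share of each gene in their summed FPKM. With *Igfbp7* included, *Igfbp7* made up 93.0% ± 0.19 of the sum in GFP and 96.3% ± 0.08 in CRE, and *Igfbp3* 4.21% ± 0.10 and 1.37% ± 0.07. Among *Igfbp1* to *Igfbp6*, the high-affinity IGF binders, the summed level was 86.9 ± 3.57 FPKM in GFP and 38.6 ± 1.97 FPKM in CRE. *Igfbp3* held 61.5%, 56.5% and 61.7% of it in GFP and 38.6%, 36.1% and 35.4% in CRE. It was the largest component in all 6 libraries, by a wide margin in GFP and a narrow one in CRE. The share of *Igfbp4* was 12.4%, 17.5% and 14.6% in GFP and 32.4%, 35.7% and 31.5% in CRE. *Igfbp6* had 11.05% ± 0.96 and 18.9% ± 1.62, and *Igfbp2* had 7.55% ± 1.85 and 7.24% ± 2.28. *Igfbp5* had 6.52% ± 2.40 and 3.88% ± 2.005. Since the shares of a library sum to the whole, the larger shares of *Igfbp4* and *Igfbp6* in CRE go with the smaller sum, and neither gene was called higher.

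**Figure D4:**
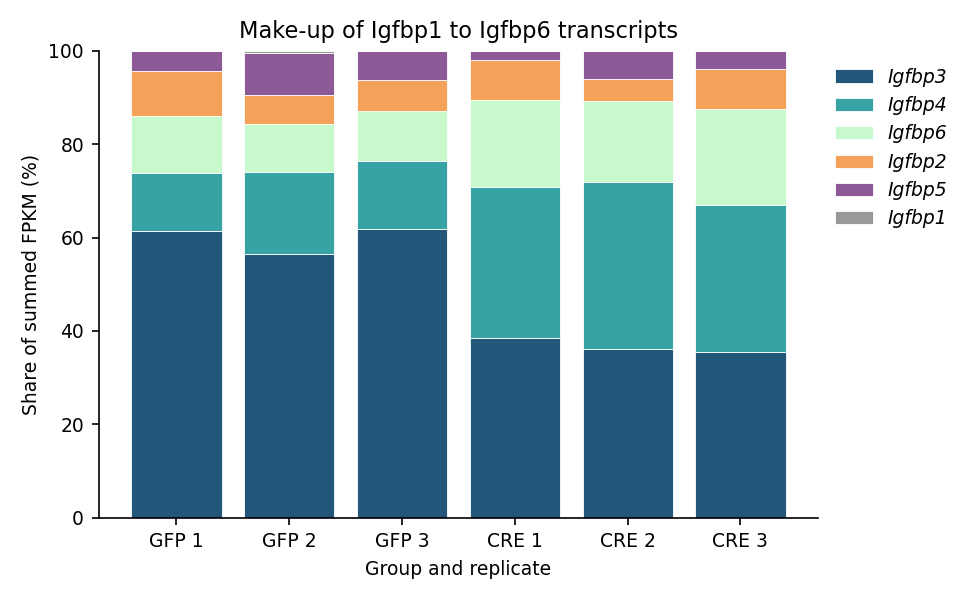
Share of each gene in the summed FPKM of *Igfbp1* to *Igfbp6* in each library; each bar is 1 library, and *Igfbp1* is too scarce to be seen in most. *Igfbp3* takes 56.5% to 61.7% of the GFP bars and 35.4% to 38.6% of the CRE bars, and *Igfbp4* takes 12.4% to 17.5% and 31.5% to 35.7%.

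Of 55 other genes of the pathway that were listed, 45 had enough counts to be tested, and of these 16 were lower in CRE, 8 higher and 21 neither, beside 25.7% lower and 25.5% higher among all tested genes. Their median log2 fold change was -0.09. The split changed with the scaling: by library size alone 10 were lower and 18 higher. *H19* was not analysed here. *Ins1* and *Ins2*, the insulin genes, had 0 counts in every library, and *Insrr*, *Igfals*, *Igfbp1*, *Igfbpl1*, *Prg2*, *Adam28* and *Irs4* had too few counts. *Igfbp1*, the neighbour of *Igfbp3*, had 0, 10 and 1 counts in GFP and 1 in each CRE library, so no difference was detectable at this depth. All adjusted p-values in the following are from the edgeR quasi-likelihood test over all tested genes. These lists too were chosen with earlier results of these data known, so the p-values sort their genes and are no independent test.

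Among the other receptors, 2 of 3 tested were lower and 0 higher (list median -0.27), beside 25.7% lower and 25.5% higher among all tested genes. *Lrp1*, a large endocytic receptor that also binds IGFBP3, went from 4146 ± 238 to 2980 ± 102 CPM (log2 fold change -0.48, SE 0.05, adjusted p = 2.70e-05). *Igf2r*, which takes up IGF2 for breakdown in lysosomes, went from 478.7 ± 36.1 to 397.9 ± 18.0 CPM (-0.27, SE 0.06, adjusted p = 0.00375), a call that was lost by library size alone, with an adjusted p of 0.152. *Insr*, the insulin receptor, had 77.9 ± 3.14 and 72.6 ± 1.15 CPM (-0.10, adjusted p = 0.0961). It passed without GFP replicate 1, at -0.13.

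The list of IGFBP proteases and PAPP-A regulators had 6 tested genes, of which 2 were lower, or 33.3% beside 25.7% of all tested genes, and 0 higher, beside 25.5% (list median -0.26). *Stc1*, an inhibitor of PAPP-A, had 65, 83 and 90 counts in GFP and 19, 40 and 27 in CRE. Its groups did not overlap, and its level in CRE was 34.8% of that in GFP (log2 fold change -1.53, SE 0.25, adjusted p = 0.000598). *Adam12*, a membrane-bound or secreted protease that cuts IGFBP3 and IGFBP5, was at 503.3 ± 23.9 and 420.0 ± 15.1 CPM (-0.26, SE 0.05, adjusted p = 0.00137), and this call too was lost by library size alone (adjusted p = 0.108). A protease and its inhibitor were therefore both lower, *Pappa* at 18.4% and *Stc1* at 34.8% of the GFP level. *Stc2*, the other stanniocalcin, had 13.0 ± 3.03 and 10.1 ± 1.37 CPM (-0.35, adjusted p = 0.101), and it passed without GFP replicate 2, at -0.52. The proteases *Htra1* (-0.09, adjusted p = 0.300) and *Adam9* (0.02, adjusted p = 0.708) did not pass, though *Adam9* passed as higher by library size alone and in the tests of log2 FPKM, at 0.18 in each. *Pappa2*, a relative of *Pappa*, was near the limit of measurement with a log2 fold change of -0.25 and an SE of 0.57.

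The growth hormone axis, through which *Igf1* is induced in many tissues, had 7 tested genes with 4 lower and 1 higher (list median -0.29), beside 25.7% lower and 25.5% higher among all tested genes. *Ghr*, the growth hormone receptor, went from 232.6 ± 6.87 to 181.8 ± 23.0 CPM (log2 fold change -0.36, SE 0.08, adjusted p = 0.00325). *Socs2*, a feedback inhibitor of that receptor, went from 30.9 ± 2.87 to 22.9 ± 0.62 CPM (-0.43, SE 0.08, adjusted p = 0.000949). *Stat5b*, the transcription factor downstream, went from 38.2 ± 2.41 to 31.2 ± 0.33 CPM (-0.29, SE 0.06, adjusted p = 0.00284), with an adjusted p of 0.0917 by library size alone. The inhibitors *Socs1* and *Socs3* had overlapping groups although both passed. *Socs1* was lower (-1.05, SE 0.32, adjusted p = 0.0188), but not past the threshold without GFP replicate 2 (-0.88), GFP replicate 3 (-0.86) or CRE replicate 1 (-0.98). *Socs3* was higher (0.37, SE 0.11, adjusted p = 0.0179), but not past it without GFP replicate 2 (0.34), GFP replicate 3 (0.29), CRE replicate 2 (0.36) or CRE replicate 3 (0.29). The kinase *Jak2* (0.09, adjusted p = 0.473) and *Stat5a* (-0.22, adjusted p = 0.123) did not pass, though *Stat5a* did without GFP replicate 1 (-0.31) and *Jak2* did, as higher, by library size alone (0.25).

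Of the signalling genes downstream of IGF1R, 7 of 26 tested were lower, 7 higher and 12 neither (list median 0.03), or 26.9% in each direction, which is close to the 25.7% lower and 25.5% higher among all tested genes. The furthest lower were *Grb14* and *Grb10*, adaptors that bind the activated insulin and IGF1 receptors and restrain them. *Grb14* had 705, 996 and 1055 counts in GFP and 262, 333 and 363 in CRE, or 33.4% of the GFP level (log2 fold change -1.58, SE 0.12, adjusted p = 4.61e-06). *Grb10* had 2941, 2679 and 3080 counts in GFP and 1188, 1078 and 1162 in CRE, or 37.4% (-1.42, SE 0.07, adjusted p = 3.83e-07). No library of either gene overlapped between groups. *Shc1*, an adaptor towards the RAS pathway, was also lower (-0.54, SE 0.05, adjusted p = 8.68e-06). The kinase genes *Pdpk1* (0.44, SE 0.06, adjusted p = 9.74e-05) and *Pik3cb* (0.43, SE 0.08, adjusted p = 0.00104) and the mTORC1 subunit gene *Rptor* (0.36, SE 0.06, adjusted p = 0.000417) were higher. Of the genes of *Igf2* mRNA binding proteins, *Igf2bp2* was lower (-0.43, SE 0.06, adjusted p = 0.000206), whereas *Igf2bp1* (0.26, adjusted p = 0.404) and *Igf2bp3* (-0.07, adjusted p = 0.800) did not pass (list median -0.07).

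Markers of several cell types moved between the groups as well, beside 25.7% lower and 25.5% higher among all tested genes, and in bulk RNA fewer cells of a type and less RNA per cell cannot be told apart. Fibroblast markers were abundant in all libraries and summed to 44697 to 47817 CPM in GFP and 25201 to 26992 CPM in CRE, with 9 of 10 lower and 0 higher. Without *Fn1*, *Col1a1* and *Col1a2*, the matrix genes that made up most of it, the sum was 4375 to 4639 CPM in GFP and 2924 to 3140 CPM in CRE. Endothelial markers were also present, and 10 of 12 were lower and 1 higher. Their sum was 1128 to 1188 CPM in GFP and 993 to 1047 CPM in CRE, or 492 to 547 and 214 to 252 CPM without *Eng*, the one that was higher, which activated fibroblasts express too. *Cdh5*, which encodes the cadherin of endothelial junctions, was at 141.7 ± 10.7 CPM in GFP and 80.1 ± 6.93 CPM in CRE. Smooth muscle and pericyte markers (6 of 11 lower, 1 higher) summed to 1095 to 1249 CPM and 927 to 944 CPM, mostly *Pdgfrb*, which fibroblasts express too, and to 175 to 194 CPM and 143 to 164 CPM without it. Macrophage markers (2 of 5 tested lower, 0 higher) summed to 34.0 to 36.5 CPM and 21.1 to 24.8 CPM. Epicardial markers (2 of 6 tested lower, 3 higher) summed to 144 to 164 CPM and 99.9 to 106 CPM, a fall carried by *Aldh1a2*, an enzyme of retinoic acid synthesis, since without it the sums were 8.16 to 9.19 CPM in GFP and 8.45 to 12.0 CPM in CRE. Of the cardiomyocyte markers 1 of 10 could be tested, *Nppb*, a natriuretic peptide gene, and it was higher, with 2, 1 and 3 counts in GFP and 28, 21 and 13 in CRE. These markers summed to 0.958 to 1.30 CPM and 2.01 to 3.06 CPM, and *Myh6*, the heavy chain of cardiac myosin, was at 0 in every library. *Igfbp3*, *Igfbp5*, *Igfbp7* and *Grb10* are expressed by several of these cell types, and the part of the marker differences in the values of these genes was not tested.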

How the data were processed

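RNA-seq was carried out on 6 libraries of mouse cardiac fibroblasts, 3 GFP and 3 CRE, grouped by their labels. By the study's methods, reads were trimmed with Trimmomatic, aligned to GRCm38 with HISAT2, counted with HTSeq-count and turned into FPKM with Cufflinks. Their versions and the strand setting of the counting are not given in the sources used here, and the labels and the methods name different RNA and library kits, one of which is stranded, so reads of overlapping genes may be shared. The authors deposited whole-number counts per gene for each library, not normalized, and FPKM values per library. The deposited log2 fold changes, p-values, q-values and group mean FPKM hold the authors' own comparison and were not used.

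Genes with low counts were removed with filterByExpr (minimum count 10, minimum total count 15), counts were scaled by TMM, and CRE was compared with GFP by the quasi-likelihood test of edgeR 4.0.16 (R 4.3.3) with Benjamini-Hochberg adjustment over 12862 genes. SEs were the absolute log2 fold change over the root of the F statistic. CPM used the TMM-scaled library sizes. The fit was tested on simulated data. No pair of replicates agreed within sampling noise (the chi-square statistic over its degrees of freedom was 3.94 to 11.7), so none was treated as 1 library deposited again. This does not show that the libraries came from separate cultures. The largest values of the statistic, 11.7 and 9.07, were those of GFP replicate 1 with GFP replicates 2 and 3. The depth sets a floor of 3 counts, given as CPM in the text.

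The IGF axis genes and the 5 pathway and 6 marker lists were chosen with earlier results of these data known. Named were the 10 IGF axis genes, every tested gene of 4 pathway lists, the 6 signalling genes past the threshold with the largest absolute log2 fold change, and the 3 genes of at least 10 mean CPM whose centred log2 CPM profile was nearest to *Igfbp3* and to *Pappa*. Also named were the genes of the pathway lists that were not tested, and *Polr2b* and *Gm49394*, which share exon bases with *Igfbp7* and *Igf2*. From the marker lists at most 2 genes each were eligible, those with the highest mean, and genes at 0 in every library. *Col1a2* was named beyond this, after its value had been seen, as 1 of the genes that make up most of the fibroblast sum. Promoter windows came from RefSeq (GRCm38.p6) and gene positions from GENCODE M21. Alternatives were RLE, upper-quartile and no TMM scaling, no low-count filter, DESeq2 1.42.0, limma 3.58.1 with voom and on log2(FPKM + 1) and log2(FPKM + 0.1), a replicate block, and leaving out each library. A count of genes whose libraries do not overlap was added after seeing the data.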

Additional observations from a re-analysis of the deposited data

How the results depend on the processing

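*Tet3*, *Pappa*, *Igfbp2*, *Igfbp3*, *Igfbp5*, *Igfbp6* and *Igfbp7* passed as lower in all 15 alternatives, with log2 fold changes of -0.78 to -0.55 for *Tet3*, -2.52 to -1.95 for *Pappa*, -2.06 to -1.81 for *Igfbp3*, -2.57 to -1.41 for *Igfbp5*, -1.69 to -1.004 for *Igfbp2*, -0.61 to -0.35 for *Igfbp6* and -0.39 to -0.21 for *Igfbp7*. Between 6 and 7 of the 10 genes were lower and 0 higher when a library was left out. By library size alone, on log2(FPKM + 1) and on log2(FPKM + 0.1), 2 of the 10 genes were higher, *Igf1* and *Igf1r*. These scalings moved the median of all genes by 0.16, 0.13 and 0.16 and the share of calls that were higher from 49.8% to 72.6%, 72.2% and 72.3%. Of the other pathway genes they left 10, 9 and 9 lower and 18, 14 and 14 higher, against 15 to 17 lower and 7 to 9 higher with a library left out. *Stc1* was -0.53 on log2(FPKM + 1), a scale that understates changes of low genes. The calls of *Igf2r*, *Adam12* and *Stat5b* were lost under the same 3 scalings, and those of *Socs1* on both FPKM scales.

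Signs turned for genes that had not passed. *Igf2* was at 0.16 and 0.29 on the FPKM scales, 0.12 without GFP replicate 2 and 0.042 without CRE replicate 3, in a range of -0.38 to 0.12 with a library left out. *Igfbp4* was at 0.0047 and 0.0060 on the FPKM scales. By library size alone and on the FPKM scales, *Insr* was at 0.060, 0.14 and 0.15, *Htra1* at 0.076, 0.070 and 0.072, and *Igf2bp3* at 0.092, 0.030 and 0.075. With a library left out, *Igf2bp3* ranged from -0.15 to 0.0080 and *Jak2* from -0.035 to 0.19, both turned without GFP replicate 1, and *Pappa2* from -1.31 to 0.16, turned without CRE replicate 2. Beyond the scaling and the fewer samples, the cause was not tested. The share of *Igfbp3* was 59.9% in GFP and 36.7% in CRE with *Igfbp7* left out of the sum.

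The labels number the replicates but do not say that a number is a shared culture. Deviations from the group means correlated by 0.046, 0.18 and -0.018 (numbers 1, 2 and 3) across genes, so the numbers were not taken as a pairing. With the replicate block 1 of the 10 genes was higher, *Igf1* at 0.15, which passed the threshold there, and 6 were lower. Depth limited *Igf2*, *Pappa2* and *Igfbp1*, which had few counts in every library.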

Other observations

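The profile over the 6 libraries was compared between *Igfbp3* and *Pappa* and 8807 other genes by the root mean square difference of centred log2 CPM, as a description. Nearest to *Igfbp3* were *Tbx20*, a cardiac transcription factor (difference 0.10, log2 fold change -1.90), *Fabp5*, a fatty acid carrier (0.11, -1.97), and *Akap6*, an anchor of protein kinase A (0.13, -1.89). *Pappa* was nearest to *Npy1r*, a neuropeptide Y receptor (0.14, -2.39), *Kit*, a receptor tyrosine kinase (0.18, -2.30), and *Cd93*, a surface protein of endothelial cells (0.19, -2.33). *Cd93* fell from 75.0 to 14.9 CPM. *Igfbp3* and *Pappa* differed from each other by 0.24, which placed *Igfbp3* sixth from *Pappa* and *Pappa* at place 30 from *Igfbp3*.

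The transcript length implied by counts over FPKM varied little for *Pappa*, *Igf1r*, *Igfbp3*, *Igfbp5*, *Igfbp6* and *Igfbp7*, of which *Igfbp3* spread most, from 2.40 to 2.42 kb over the 6 libraries. It varied more for other genes. *Igfbp4* ranged from 2.23 to 2.64 kb between libraries. *Igfbp2* was at 1.29 ± 0.03 kb in GFP and 1.14 ± 0.10 kb in CRE, and *Igf1* at 3.44 ± 0.06 and 3.32 ± 0.07 kb. *Igf2* was at 3.61 to 3.71 kb in GFP and at 3.89, 1.60 and 3.86 kb in CRE. In CRE replicate 2, the library at 1.60 kb, *Gm49394*, which shares 3596 of the 5723 exon bases of *Igf2* on the same strand, had 4 counts, and it had 0 in the other libraries.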
